A study of Mus musculus with 25 samples.

Results

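SINE B1 copies were chosen as every repeat row of the deposited count table whose class field read SINE/Alu, the class under which repeat annotations list mouse B1. The rule used no measured value and found 315046 copies of 1755056 repeat copies. Of these, 291761 of 1573105 autosomal copies were used, which comprised 164474 inside gene bodies (at least 1 base of overlap with a gene), 68414 outside genes at less than 10 kb, and 58873 at 10 kb or more from any gene. The last set is called far copies below, and distance was measured only to the genes of the same count table. Reads were summed by subfamily and place, which gave 29 B1 sums with enough reads to test, 15 inside genes and 14 far from genes. PB1 copies far from genes were too low to test.

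B1 is a short interspersed element that descends from the 7SL RNA of the signal recognition particle, as does the human Alu element. It is transcribed by RNA polymerase III from a promoter that lies within the element and consists of an A box and a B box, and it is moved by the machinery of L1 elements. Most copies lie in or near genes, where RNA polymerase II also reads through them as part of introns, so a read on a B1 copy does not tell which polymerase made the RNA. In the mouse two-cell embryo, in which the zygotic genome is activated, B1 copies have been described as being among the transcribed repeats.

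Each library was made from the RNA of a pool of 5 to 10 two-cell embryos, collected at 28 to 29 h after insemination or activation, and 25 libraries fell into 11 groups. IVF embryos (4 libraries) came from C57BL/6N oocytes and DBA2 sperm, whereas all SCNT embryos (somatic cell nuclear transfer) came from BDF1 oocytes that were enucleated and received a nucleus of a BDF1 cumulus cell, so both share the BDF1 nuclear background. IVF embryos are of both sexes and SCNT embryos female, and mode of production, strain of the oocyte donor and sex cannot be told apart in any comparison with IVF. Cytochalasin B, an inhibitor of actin polymerization, was used for 3 sets of SCNT embryos with 2 libraries each: controls (control SCNT), and embryos injected with 10 pL of Kdm3a or Kdm4d mRNA at 1500 ng/µL, which encode demethylases of H3K9me1/2 and H3K9me3. The other SCNT embryos were labelled as treated with latrunculin A (LatA), another actin inhibitor: untreated LatA controls (2 libraries), embryos given the histone deacetylase inhibitor TSA at 25 nM for 8 h (2), the G9a inhibitors RK-701 (R701 in the labels, 3) or A366 (2) at 1 µM for 24 h, and TSA with RK-701, A366 or UNC0638 (2 each). Each library is a pool of whole embryos, so fewer transcribing cells and less RNA per cell cannot be told apart. The kit captured polyadenylated RNA and kept no strand, and only reads with 1 position in the genome were counted, which leaves out reads on young copies that are alike.

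Reads on autosomal genes numbered 6124685 to 18978930 per library with a median of 12977564, and reads on B1 copies 75324 to 373269. Levels are given in rpm, which is CPM computed with the autosomal gene reads after TMM scaling as the library total. Of the marker lists, the 7 two-cell genes summed to 350 to 1895 rpm with none at 0, the 6 oocyte genes to 530 to 1567, and the 8 cumulus genes to 4.09 to 16.7 with 1 to 4 of them at 0 in a group. The LatA controls were the most unlike pair of libraries, with B1 reads at 2.23% and 3.97% of their gene reads, so counts that use them are given without the second of them as well.

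To show what is counted, the reference sequences of the most-read copy with a sequence in the tables used here are given for the 4 subfamilies with the most reads over all places (B1_Mus2, B1_Mus1, B1_Mm and B1_Mur2), followed by a B1_Mus1 copy far from genes. B1_Mur2 is among these 4 through copies near genes, 1 of which, near Nudt2, held 170315 of its 516033 reads, and without the copies near genes B1_Mur4 and B1_Mur1 held more. The copies shown were chosen after values were seen. The first 4 lie in transcripts of GENCODE M21 annotated as retained introns, and the last in a RefSeq promoter window, all on GRCm38. The last is far by the genes of the count table, although it lies before the RefSeq gene Gm30019. Capitals mark the core of the B box, searched as GTTCGA or GTTCAA on the strand of the copy, and a line without capitals holds neither.
B1_Mus2, chr19:3867238-3867375 (+), in Chka: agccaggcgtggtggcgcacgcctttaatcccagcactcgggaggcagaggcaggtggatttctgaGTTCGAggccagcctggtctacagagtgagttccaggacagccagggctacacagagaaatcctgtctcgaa
B1_Mus1, chr1:179683890-179684032 (-), in Sccpdh: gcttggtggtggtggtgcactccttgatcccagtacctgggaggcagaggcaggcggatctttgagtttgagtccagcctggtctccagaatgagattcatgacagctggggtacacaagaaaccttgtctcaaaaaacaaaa
B1_Mm, chr5:90266513-90266659 (+), in Ankrd17: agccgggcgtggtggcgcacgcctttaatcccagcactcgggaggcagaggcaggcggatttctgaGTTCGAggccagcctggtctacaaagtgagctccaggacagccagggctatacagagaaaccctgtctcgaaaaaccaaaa
B1_Mur2, chr16:87470480-87470609 (-), in Usp16: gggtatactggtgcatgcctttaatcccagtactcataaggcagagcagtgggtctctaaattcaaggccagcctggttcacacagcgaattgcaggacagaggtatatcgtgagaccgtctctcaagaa
B1_Mus1, chr4:133775804-133775939 (-), before Gm30019: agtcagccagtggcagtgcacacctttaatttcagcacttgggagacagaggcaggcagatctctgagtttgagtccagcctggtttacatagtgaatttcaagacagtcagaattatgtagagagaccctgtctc

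Against the B1_Mus2 copy in Chka, the B1_Mm copy had 89.8% identical bases, the B1_Mus1 copy in Sccpdh 74.8% and the B1_Mur2 copy 69.6%. The Chka copy held 6 CpG and the Ankrd17 copy 8, both with GTTCGA, whereas the Sccpdh copy held 1 CpG. A sequence was found for 2906 autosomal copies (0.996%), of which 12 were far from genes, so these shares describe copies in annotated transcripts and promoters. GTTCGA was present in 37.6% of 490 B1_Mus2 copies, 26.4% of 652 B1_Mus1 copies, 41.2% of 228 B1_Mm copies and 2.08% of 240 B1_Mur2 copies. Over all 2906 copies 18.1% held GTTCGA and 21.0% GTTCAA, whereas 0.563% of promoter windows of 138 bases held GTTCGA and 3.0% either core. The copies shown differed in level as well. The Chka copy was at 7.80 ± 1.23 rpm (SD, n = 4) in IVF and 29.3 ± 9.65 (n = 2) in control SCNT embryos, whereas the Usp16 copy was at 22.1 ± 4.17 and 11.4 ± 0.626, and the far copy held 16 reads in all libraries together.

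Copies inside genes carried most of the signal. Of the B1 reads on autosomes, 68.8% fell inside genes, 23.0% near genes and 8.14% far from them, and reads per kb of B1 were 185, 149 and 61.0. At least 1 read was found on 69.1% of copies inside genes, 61.5% of near copies and 45.8% of far copies. Within genes, 92.5% of the reads were in protein-coding hosts, and copies that overlap an annotated exon were 2.23% of the copies and held 7.72% of the reads. Of the copies inside genes 42.7% lay on the strand of the host and 53.7% on the other strand, with 194 and 178 reads per kb. B1_Mus2 had the highest mean level inside genes among the subfamilies, followed by B1_Mus1. The reads of a subfamily were spread over many copies in B1_Mus1, where the 10 most-read copies inside genes held 4.68% of them, but were concentrated in PB1, where they held 92.8%.

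The first comparison asked how B1 reads differ between SCNT embryos and fertilized embryos of the same stage. B1 levels inside genes were higher in every control SCNT library than in every IVF library. The IVF libraries held 8771, 9417, 9582 and 9457 rpm inside genes, and the control SCNT libraries 16872 and 16298. The group means were 9307 ± 364 (SD, n = 4) and 16585 ± 406 (n = 2), a ratio of 1.78. Far from genes the means were 1249 ± 74.7 and 2002 ± 160, which was 160.3% of the IVF mean. The share of B1 among repeat reads inside genes was 15.9% in IVF and 19.7% in control SCNT embryos.

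**Figure D1:**
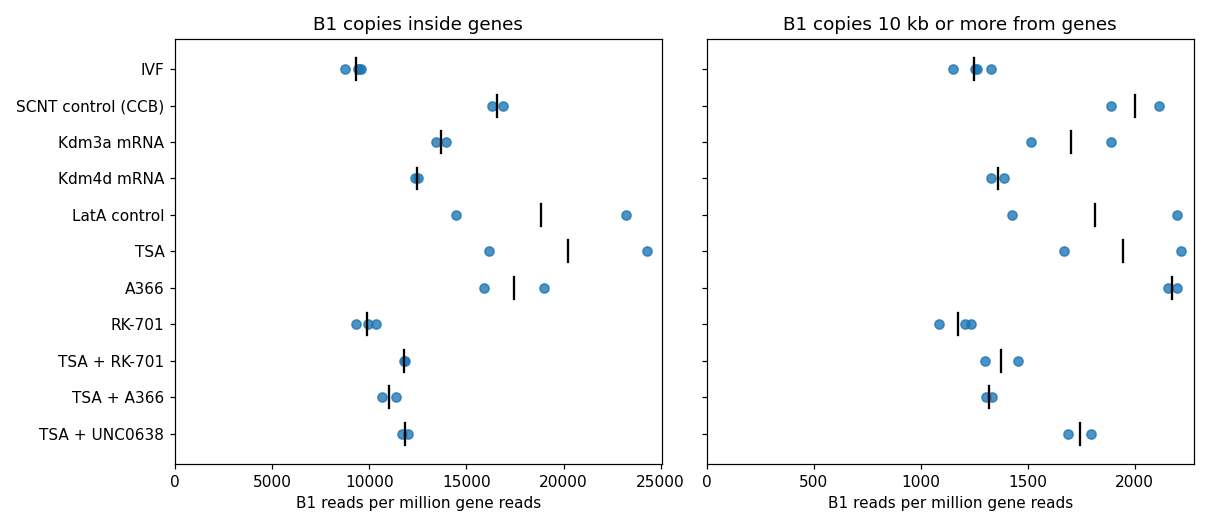
Reads on all autosomal B1 copies inside genes (left) and 10 kb or more from genes (right), in rpm, for each of the 11 groups. Points are libraries and black bars are group means. Control SCNT libraries (16298 and 16872 inside genes) lie above IVF (8771 to 9582), and the LatA control libraries lie far apart (14459 and 23202).

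Of the 29 B1 sums 24 were higher in control SCNT than in IVF embryos and 0 were lower (edgeR quasi-likelihood test, adjusted p under 0.05 over 1460 sums of all repeats), 14 of 15 inside genes and 10 of 14 far from genes. Of all repeat sums 24.6% were higher. The median log2 fold change was 0.81 inside genes and 0.67 far from them, and 2 B1 sums changed more than 2-fold. For all repeats the medians were 0.70 inside genes, 0.29 far from them and 0.50 over both. Here and below, a median over all repeats takes both places together unless places are named. Without the first control SCNT library 17 sums were called, and without TMM factors the median over all repeats was 0.76 and those of B1 1.08 and 0.94. The oocyte markers summed to 1356 to 1567 rpm in IVF, 642 to 745 in control SCNT and 530 to 677 in LatA control libraries. Oosp1 made much of this sum, with means of 833 in IVF and 338 in control SCNT embryos. Gdf9, Nlrp5, Padi6 and Zp3 were lower as well, whereas Npm2 was at 62.5 and 67.2. The part of these markers in the difference was not tested.

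B1_Mus1 and B1_Mus2, the most abundant subfamilies, moved alike inside genes. B1_Mus1 inside genes was at 2139, 2295, 2322 and 2319 rpm in IVF libraries, and at 4371 and 4174 rpm in control SCNT libraries. Its log2 fold change was 0.91 (SE 0.13, adjusted p = 2.01e-05). B1_Mus2 inside genes was at 2275 to 2609 rpm in IVF and at 4446 and 4207 in control SCNT libraries, a log2 fold change of 0.81 (SE 0.21, adjusted p = 0.00497). In both subfamilies the groups did not overlap. B1_Mm, a young subfamily, was at 907 to 998 rpm in IVF and at 1940 and 1894 in control SCNT libraries inside genes, with a log2 fold change of 1.00 (SE 0.13, adjusted p = 1.34e-05), and B1_Mur2 was at 661 to 710.5 rpm and at 1098 and 1070 rpm (0.65, SE 0.12, adjusted p = 0.000247). Far from genes the log2 fold changes were 0.81 for B1_Mus2 (SE 0.17), 0.65 for B1_Mus1 (SE 0.17), 0.88 for B1_Mm (SE 0.15) and 0.60 for B1_Mur2 (SE 0.16), all called.

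The largest changes were in rare subfamilies that rest on few copies. PB1 inside genes was at 2.06 to 4.21 rpm in IVF and at 21.6 and 16.2 rpm in control SCNT libraries (log2 fold change 2.51, SE 0.27, adjusted p = 1.62e-06). PB1D11 far from genes was at 0.429 to 1.69 rpm and at 6.69 and 7.60 rpm (2.77, SE 0.38, adjusted p = 1.34e-05), and its 10 most-read copies held 99.1% of its reads. PB1D11 inside genes, at a log2 fold change of 0.40 (adjusted p = 0.236), was the sum inside genes that was not called.

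The LatA controls, which serve as the reference for the inhibitors, also lay above IVF. Inside genes they held 14459 and 23202 rpm, a mean of 18831 ± 6182 (n = 2), and both values lay above every IVF library. Of the 29 B1 sums 24 were higher and 0 lower (14 inside genes, 10 far), beside 20.1% of all repeat sums. Median log2 fold changes were 0.95 inside genes and 0.66 far from them. Those of all repeats were 0.59 inside genes, 0.03 far from them and 0.32 over both. Without the second LatA control library, where the lone library left was assumed to vary like the other groups, 14 were higher, with medians of 0.68 and 0.39. Between the LatA controls and control SCNT embryos 0 B1 sums were called, with 0 at an unadjusted p under 0.05 and 0 by DESeq2, and 0.0685% of all repeat sums were lower.

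**Figure D2:**
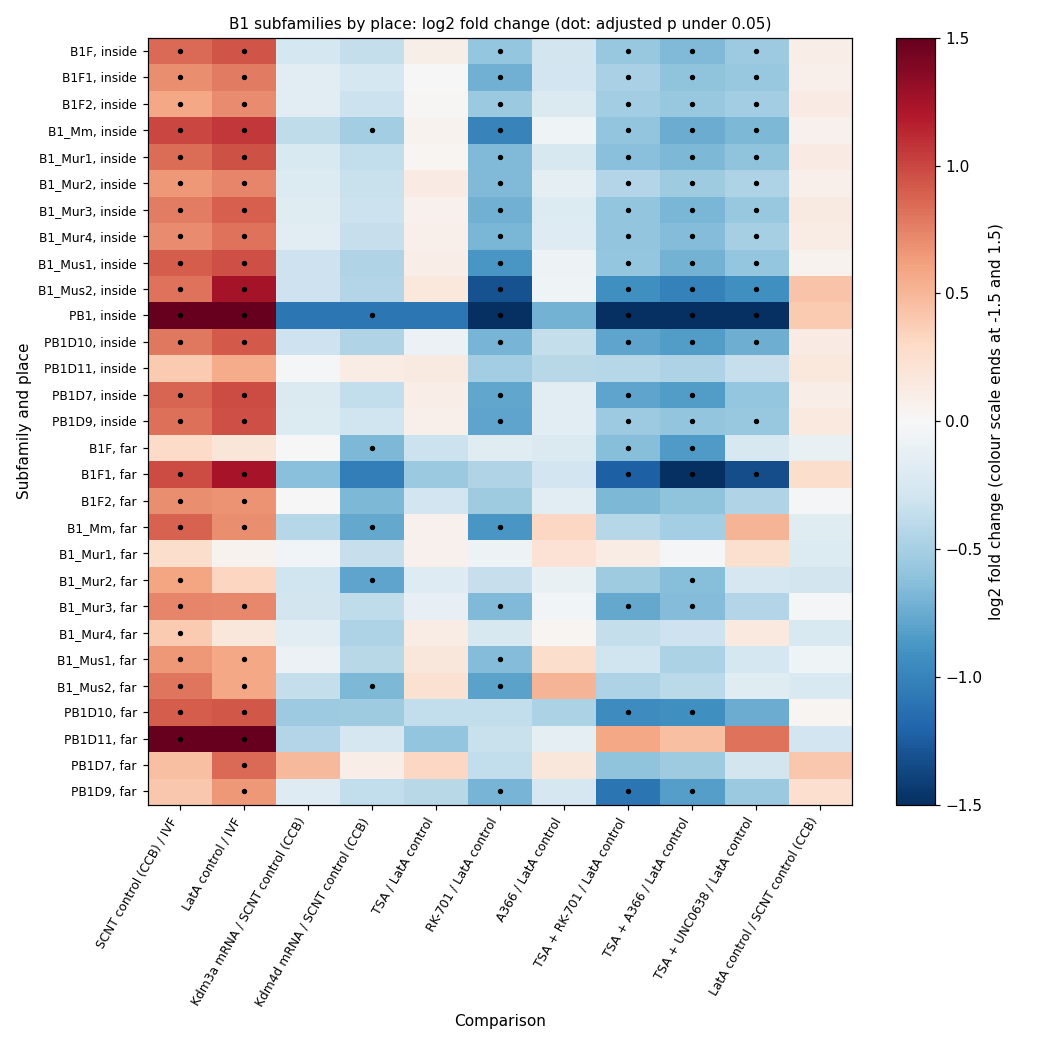
Log2 fold change (colour) of the 15 B1 sums inside genes and the 14 far from genes (rows) in 11 comparisons (columns, group before the stroke over reference). A black dot marks an adjusted p under 0.05; 24 dots stand in each comparison with IVF, and 0 in the columns of Kdm3a mRNA, TSA and A366.

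The change differed between places for some subfamilies, as tested with a term for place in each of 14 subfamilies. In control SCNT against IVF embryos 5 differed, beside 15.7% of all repeat subfamilies: B1_Mur1 (0.57, SE 0.10), B1F (0.56, SE 0.17), B1_Mur4 (0.31, SE 0.10) and B1_Mus1 (0.27, SE 0.08) rose more inside genes on the log2 scale, and PB1D11 rose more far from them (-2.44, SE 0.51). The count was 2 without the second IVF library, without the 10 most-read copies of each sum, or with copies 50 kb or more from genes. For the LatA controls 8 differed, 7 of them with the larger rise inside genes, beside 22.7% of all. The median difference between places over the 14 subfamilies was 0.09 in control SCNT and 0.33 in LatA control embryos. Over all repeat subfamilies it was larger, at 0.33 and 0.53, so the values of B1_Mur4 and B1_Mus1 in control SCNT embryos lay below that median. For B1_Mus2 the difference between places was 0.00 (SE 0.15, adjusted p = 0.992) in control SCNT and 0.58 (SE 0.15, adjusted p = 0.00556) in LatA control embryos, or 0.32 (adjusted p = 0.241) without the second LatA control library.

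The rise was present in both orientations and in hosts that rose, fell or were not called. B1 reads on the strand of the host gene were at 3826 ± 123 rpm in IVF and 7637 ± 465 in control SCNT embryos, and those on the other strand at 5129 ± 240 and 8302 ± 103. Copies that overlap no annotated exon held 8589 ± 354 and 15315 ± 366.4 rpm. By the call of the host gene itself, in control SCNT against IVF embryos, B1 reads were 2.60 times as high in 1925 hosts that rose, 1.34 times in 1972 hosts that fell and 1.84 times in 10721 hosts that were not called. Over 5595 copies in 2650 tested hosts, the log2 fold change of the copy had a median of 0.81 and that of the host -0.07, with a Spearman correlation of 0.234 across copies, which share hosts and libraries.

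**Figure D3:**
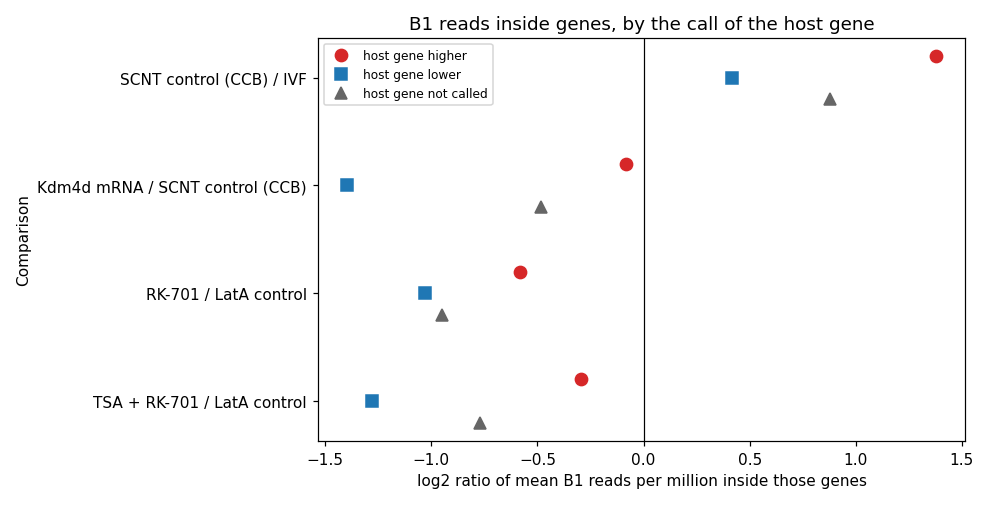
Log2 ratio of mean B1 rpm inside genes, for hosts called higher (circles), lower (squares) or not called (triangles) in 4 comparisons, without error bars. In control SCNT against IVF embryos all 3 classes lie above 0 (ratios 2.60, 1.34 and 1.84). In SCNT-Kdm4d, RK-701 and TSA with RK-701 against their controls the log2 ratios of means all lie below 0. For hosts that rose with Kdm4d the means were 2404 (SD 3.48) and, in control SCNT embryos, 2548 (SD 50.4) rpm. The B1_Mus2 copy in Zfp599 alone was at means of 446 and 714 rpm in these groups. Zfp599 itself was at 134 and 123 rpm with Kdm4d and 35.3 and 32.9 in control SCNT libraries, so this point can depend on that copy. For hosts that rose with TSA and RK-701 the means were 2657 (SD 97.4) and, in LatA controls, 3262 (SD 861) rpm, so this point depends on the spread of the LatA controls. With Kdm3a, not drawn, the ratios were 1.06, 0.392 and 0.781 for hosts called higher, lower and not called.

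Other repeat classes gave a scale for these values. Inside genes, control SCNT levels were 1.59 times those of IVF for B2, 1.76 for B4, 1.87 for L1, 1.01 for ERVL-MaLR and 0.715 for ERVL, beside 1.78 for B1. Far from genes the ratios were 1.15 for B2, 1.28 for B4, 1.46 for L1, 0.914 for ERVL-MaLR and 0.548 for ERVL, and the B1 mean stood at 160.3% of IVF. The ratio of B1 to B2 far from genes was 0.302 ± 0.0484 in IVF (n = 4) and 0.411 ± 0.0343 in control SCNT embryos (n = 2). These class ratios were not tested against each other.

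Demethylase mRNA was compared with control SCNT embryos. SCNT-Kdm3a libraries held 13971 and 13409 rpm inside genes and SCNT-Kdm4d libraries 12501 and 12372, both below the 2 control SCNT libraries and above the 4 IVF libraries. With Kdm4d 6 B1 sums fell and 0 rose, 2 inside genes and 4 far, beside 7.33% of all repeat sums. The medians were -0.35 inside genes and -0.50 far, against -0.42 and -0.51 for all repeats there and -0.44 over both places. The count was 0 without the first control SCNT library and 2 without the second, 26 without TMM factors and 1 when scaled to all repeat reads. With Kdm3a 0 sums were called, beside 0.479% of all repeat sums that were lower, with 3 at an unadjusted p under 0.05 and 1 called by DESeq2, and with medians of -0.22 and -0.24.

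Among the named subfamilies, B1_Mm far from genes fell with Kdm4d from 334 and 304 rpm to 176 and 200.03 rpm (log2 fold change -0.76, SE 0.18, adjusted p = 0.0179). B1_Mur2 far from genes fell from 109 and 87.3 rpm to 56.0 and 57.1 rpm (-0.79, SE 0.19, adjusted p = 0.0174). B1_Mm inside genes fell as well, by 0.52 on the log2 scale (SE 0.16, adjusted p = 0.0449). B1_Mus1 inside genes was at 3129.55 and 3118 rpm, a log2 fold change of -0.45 (SE 0.15, adjusted p = 0.0679), which did not pass. The place term was not called for any of the 14 subfamilies with Kdm4d by edgeR (3 at an unadjusted p under 0.05), beside 1.23% of all repeat subfamilies. The oocyte markers summed to 1040 to 1188 rpm in SCNT-Kdm4d and 642 to 745 in control SCNT libraries. From control SCNT to SCNT-Kdm4d the means were 338 and 654 for Oosp1 and 50.4 and 123 for Zp3. The other markers moved less: Gdf9 59.0 and 62.0, Npm2 67.2 and 70.5, Padi6 73.2 and 78.9, and Nlrp5 106 and 125. The part of these markers in the result was not tested.

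Among the inhibitors, RK-701 embryos had the lowest B1 levels inside genes of the SCNT groups. The 3 RK-701 libraries held 9306, 10365 and 9922 rpm inside genes, below both LatA controls (14459 and 23202) and with the first of the 3 inside the IVF range. Far from genes they held 1086, 1235 and 1205 rpm, below 1429 and 2198 in the LatA controls. Of the 29 B1 sums 19 fell and 0 rose, 14 inside genes and 5 far, beside 8.29% of all repeat sums. Median log2 fold changes were -0.72 inside genes and -0.41 far. Those of all repeats were -0.39 inside genes, -0.02 far and -0.25 over both.

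The second LatA control library decided this count. Without it 1 sum fell, at medians of -0.53 inside genes and -0.25 far, and without the first LatA control library 19 fell. Scaled to all repeat reads, 8 fell, with medians of -0.32 inside genes and -0.01 far beside 0.12 over all repeats. B1_Mus1 inside genes was at 2256, 2572 and 2444 rpm with RK-701 and at 3581 and 5282 rpm in the LatA controls (log2 fold change -0.87, SE 0.14, adjusted p = 0.000387). B1_Mm inside genes was at 920 to 1075 rpm against 1594 and 2403 (-1.001, SE 0.14, adjusted p = 0.000169). Without the second LatA control library these changes were -0.56 (adjusted p = 0.0584) and -0.67 (adjusted p = 0.038). The oocyte markers summed to 1134 to 1355 rpm with RK-701 and to 530 to 677 in the LatA controls. Oosp1 made much of this sum, with means of 646 and 248, and each of the other markers had a higher mean with RK-701 too. The part of these markers in the result was not tested.

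A366 embryos, given another G9a inhibitor at the same dose and time, kept high B1 levels. They held 18966 and 15903 rpm inside genes and 2198 and 2157 far from them, and 0 B1 sums were called against the LatA controls (2 at an unadjusted p under 0.05, 0 by DESeq2), beside 0.137% of all repeat sums that were lower. TSA alone also gave 0 calls (1 at an unadjusted p under 0.05, 1 by DESeq2), beside 0.342% of all repeat sums that were higher, and its libraries lay far apart like the LatA controls, at 24270.3 and 16159 rpm inside genes. Without the second LatA control library 2 sums were higher with A366 and 1 with TSA.

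The combinations with TSA all lay between IVF and the LatA controls inside genes. The libraries of TSA with RK-701 held 11784 and 11821 rpm, those of TSA with A366 10664 and 11379, and those of TSA with UNC0638 11659 and 11983. Against the LatA controls, 19 B1 sums fell with TSA and RK-701 (14 inside genes, 5 far), beside 14.3% of all repeat sums, 20 with TSA and A366 (14 and 6), beside 16.4%, and 14 with TSA and UNC0638 (13 and 1), beside 5.07%. No B1 sum rose in these 3 comparisons. The medians inside genes and far from them were -0.59 and -0.57 for TSA with RK-701, -0.67 and -0.57 for TSA with A366, and -0.57 and -0.25 for TSA with UNC0638. In the same order and places, those of all repeats were -0.56 and -0.40, -0.62 and -0.41, and -0.40 and 0.03. Over both places they were -0.49, -0.53 and -0.21.

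These counts too rest on the second LatA control library. Without it 1, 2 and 1 sums fell, and 1 rose with TSA and UNC0638, and the medians inside genes were -0.36, -0.45 and -0.35. Without the second library of TSA with UNC0638, 1 sum was called in that comparison. For B1_Mus1 inside genes, the libraries held 2955 and 2959 rpm with TSA and RK-701, 2607 and 2814 with TSA and A366, and 2942 and 2999 with TSA and UNC0638, all below the lower LatA control (3581). With TSA and RK-701 the change of 2 of 14 subfamilies differed between places, beside 5.4% of all. They were B1_Mur1 (-0.73, SE 0.12) and B1_Mus1 (-0.32, SE 0.09, edgeR adjusted p = 0.0454), both with the lower change inside genes. For B1_Mus1 the value was -0.15 without the first LatA control library and -0.50 without the second.

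Comparisons among inhibitors do not use the LatA controls, and 4 pairs were compared at matched doses and times, with p values adjusted over all repeat sums of each pair. Between the single treatments, 13 of 29 B1 sums were higher with A366 than with RK-701 and 0 were lower, beside 11.2% of all repeat sums called. B1_Mus1 inside genes was at 4367 and 4068 rpm with A366 against 2256 to 2572 with RK-701, a log2 difference of 0.80 (95% interval 0.52 to 1.08, adjusted p = 0.000432), and B1_Mus2 far from genes was at 593 and 696 rpm against 238 to 275, a difference of 1.31 (0.93 to 1.68, adjusted p = 4.62e-05). Without the first A366 library 6 sums were called and without the first RK-701 library 7, both with 0 lower. Scaled to all repeat reads instead of gene reads, 6 B1 sums were higher and 1 was lower, and the median inside genes turned to -0.03 from 0.51, beside -0.20 and 0.33 over all repeats.

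With TSA present the inhibitors could not be told apart in most sums. Between TSA with A366 and TSA with RK-701, 0 B1 sums were called by edgeR, with 0 at an unadjusted p under 0.05, beside 0% of all repeat sums, and the difference for B1_Mus1 inside genes was -0.13 (95% interval -0.44 to 0.19). TSA with UNC0638 differed from TSA with RK-701 in 1 sum (beside 2.88% of all) and from TSA with A366 in 1 sum (beside 4.18%), both times B1_Mm far from genes, by 0.94 (SE 0.18, adjusted p = 0.0149) and 1.03 (SE 0.18, adjusted p = 0.00342). Both calls rest on 1 copy, 10952 b from Arid1b, which is described with the single copies. Without it the differences were 0.15 (adjusted p = 0.742) and 0.24 (adjusted p = 0.537) and 0 sums were called in either pair (2 and 3 at an unadjusted p under 0.05). They were also lost without either library of TSA with RK-701 or the second of TSA with UNC0638 in the first pair, and without either library of TSA with A366 in the second. For B1_Mus1 inside genes the differences were 0.01 (-0.31 to 0.32) and 0.13 (-0.18 to 0.45).

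The test of whether the change with a G9a inhibitor depends on TSA gave 1 call. For A366 it was called for B1_Mus2 far from genes (-1.13, SE 0.29, adjusted p = 0.0316), with 15 of 29 sums at an unadjusted p under 0.05, beside 3.42% of all repeat sums called. Without a 35 b fragment of this subfamily nearest Slc22a23 the value was -0.85 (adjusted p = 0.0865) and 0 sums were called, with 15 at an unadjusted p under 0.05. No sum was called without the first LatA control, the first TSA, or either library of A366 or of TSA with A366, where 5 to 16 had an unadjusted p under 0.05, and 11 were called without the second LatA control or the second TSA library. Over these libraries the value for B1_Mus2 ranged from -1.51 to -0.84. That sum was at 350.3 and 558 rpm in the LatA controls, 593 and 696 with A366, 630.3 and 432 with TSA, and 321 and 367 with both. For RK-701 0 B1 sums were called by edgeR, with 2 at an unadjusted p under 0.05, beside 0% of all repeat sums.

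Single copies showed what the sums hide. Of 8037 B1 copies with a mean of at least 5 reads, 671 were higher and 147 lower in control SCNT than in IVF embryos, or 8.35% and 1.83%, beside 7.69% and 4.57% of all 46280 repeat copies tested. In LatA controls 860 were higher and 134 lower (10.7% and 1.67%), beside 7.54% and 5.53% of all. Few single copies were called with the treatments. The median log2 fold changes of the B1 copies were -0.06 with Kdm3a, -0.22 with Kdm4d, -0.74 with RK-701 and -0.41 with TSA and RK-701. In the same order, those of all repeat copies were -0.03, -0.22, -0.36 and -0.29. With Kdm3a 15 rose and 5 fell, beside 0.694% and 0.169% of all, with Kdm4d 3 rose and 2 fell, beside 0.184% and 0.0713%, with RK-701 0 rose and 27 fell, beside 0.0778% and 0.307%, and with TSA and RK-701 4 rose and 8 fell, beside 0.387% and 0.149%. These counts rest on few libraries. Without the first control SCNT library 244 copies were called against IVF, without the second LatA control library 188 in the LatA controls, 0 with RK-701 and 3 with TSA and RK-701, and without the first LatA control library 249 with RK-701 and 45 with TSA and RK-701.

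Copies that changed from or to no read were among those with the largest fitted changes. A B1_Mus1 copy at chr10:128531727-128531872 (-), in Gm29585, had 0 reads in the 4 IVF libraries and 29.3 and 3.49 rpm in control SCNT libraries. The control SCNT mean was at least 56.3-fold higher when each IVF library is set to 3 reads (adjusted p = 0.0248). This bound and those below compare group means, so single libraries can lie under them. A PB1D9 copy at chr2:129082869-129082985 (-), in Ttl, which encodes the tubulin tyrosine ligase, was at 0 in IVF and at 5.63 and 1.75 rpm (at least 12.7-fold, adjusted p = 0.0169), and at 6.89 and 4.38 rpm in LatA controls (at least 19.4-fold, adjusted p = 0.0104). A B1F copy at chr7:97418210-97418337 (+), 480 b from Thrsp, had reads in all 21 SCNT libraries, at 1.49 to 8.09 rpm, and in no IVF library (LatA controls at least 17.2-fold higher, adjusted p = 9.29e-06).

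The opposite pattern was seen too. A B1_Mur4 copy at chr15:84649995-84650135 (+), 19485 b from Prr5, was at 3.99 to 13.7 rpm in IVF and at 0 in control SCNT and LatA control libraries (at least 32.0-fold and 38.4-fold lower, adjusted p = 0.0425 and 0.0356). A B1_Mur2 copy at chr16:34097134-34097280 (+), in an intron of Kalrn, was at 12.8 and 2.27 rpm in control SCNT libraries and at 0 in both SCNT-Kdm3a and both SCNT-Kdm4d libraries (at least 33.3-fold and 30.4-fold lower, adjusted p = 0.0200 and 0.0413). Its means were low in the other groups too, at 0.375 rpm in IVF, 0.480 in LatA controls and at most 1.21, with TSA. Control SCNT embryos, which both comparisons share, were thus the group that stood apart. A B1_Mm copy 236 b from Pxt1, at chr17:28944076-28944218 (-), was at 5.12 to 8.50 rpm in IVF, 0.319 and 0.874 in control SCNT and 4.96 and 5.55 in SCNT-Kdm4d libraries (log2 fold change with Kdm4d 3.09, SE 0.58, adjusted p = 0.0243). With TSA and RK-701 a B1_Mur2 copy in Gldc, which encodes glycine decarboxylase, rose from 0.653 and 1.12 to 5.60 and 8.05 rpm (2.96, SE 0.62, adjusted p = 0.0315). Its means were also high with TSA alone (5.14 rpm), A366 alone (5.49) and in IVF (4.91), but not with RK-701 alone (0.949).

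The copy with the most reads was a B1_Mus2 copy at chr9:22258758-22258904 (+) in an intron of Zfp599, a zinc finger gene on the other strand. It was at 313 to 518 rpm in IVF libraries, 776 and 651 in control SCNT, 407 and 3383 in LatA controls, 3855 and 966 with TSA, 2580 and 1176 with A366, and 210.0 to 335 with RK-701. In the 10 other libraries it lay between 385 and 567 rpm. The reads of Zfp599 itself were at 137 to 175 rpm in IVF and at 32.9 to 144 in the SCNT libraries, and at 50.6 and 42.7 in the LatA controls, and did not follow the order of the copy. Without this copy the sums called were 24 and 24 against IVF, 6 with Kdm4d, 19 with RK-701, 19 with TSA and RK-701, 21 with TSA and A366 and 14 with TSA and UNC0638.

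Near genes, a few copies were at high levels in some libraries of a group and nearly unread in others. A B1_Mur2 copy at chr4:41487361-41487498 (-), 6435 b from Nudt2, was at 0.172 rpm in 1 IVF library and at 404 to 473 in the other 3. It was at 0.278 rpm in 1 RK-701 library, 0.255 in 1 of TSA with RK-701 and 0 in 1 of TSA with A366, where the other libraries of these groups held 281 to 681 rpm, and it reached 1825 in the second LatA control. A B1_Mm copy at chr15:76530922-76531068 (+), 2145 b from Tmem249, was at 7.56 to 20.0 rpm in IVF and 9.52 to 12.9 with RK-701, and at 36.3 and 684 in control SCNT, 22.5 and 1301 in LatA control, and 2022 and 429 in TSA libraries. Libraries of 1 group thus differed by large factors in both copies.

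**Figure D4:**
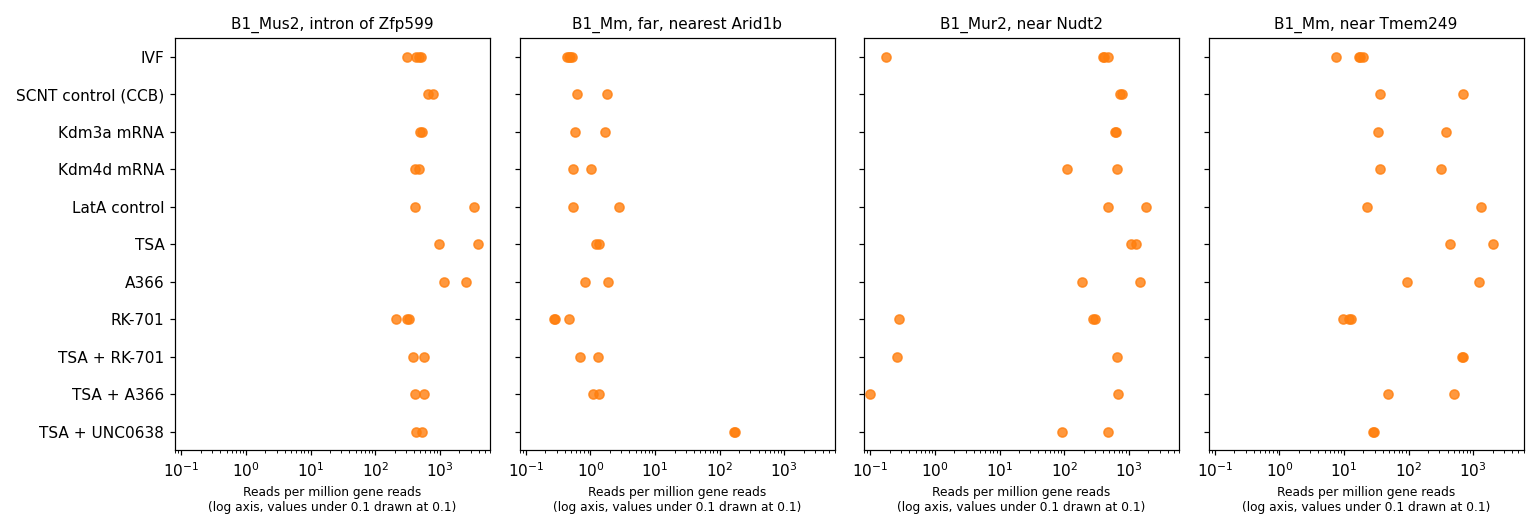
Levels in rpm (log axis, values under 0.1 drawn at 0.1) on 4 single copies in the libraries of the 11 groups; each point is a library. The copy nearest Arid1b is at 167 and 174 with TSA and UNC0638 and at most 2.75 elsewhere, and the copies in Zfp599 and near Nudt2 and Tmem249 differ widely between libraries of 1 group.

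By a rule set after the values were seen (above 5 rpm in every library of a group and 5 times any other library), 2 copies were found that stood out in 1 group, given as a description. A B1_Mm copy at chr17:4983240-4983380 (+), 10952 b from Arid1b, a subunit gene of the BAF chromatin remodelling complex, had 1938 and 2160 reads, or 167 and 174 rpm, with TSA and UNC0638, and at most 27 reads (2.75 rpm) in each of the other 23 libraries. It held much of the B1_Mm sum far from genes in that group, which was 378 and 427 rpm with it and 210 and 252 without it. A B1F2 copy at chr3:102912687-102912818 (+), in an intron of Sycp1, a gene of the synaptonemal complex, was at 20.5 to 28.4 rpm in IVF and at most 1.49 in the 21 SCNT libraries.

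Among the far copies with the most reads, a B1_Mus2 copy at chr7:80553775-80553920 (-), nearest Blm, was read in every library, at 18.8 to 31.1 rpm in IVF and 40.1 and 81.2 in control SCNT. A B1_Mus2 fragment at chr13:34355306-34355340 (+), nearest Slc22a23, was at 0.768 to 10.3 rpm in IVF, 2.23 to 2.78 with RK-701 and 69.4 and 157 with A366. A B1_Mus1 copy at chr13:31507309-31507455 (+) was at 4.36 to 9.75 rpm in IVF and 3.86 and 39.4 in the LatA controls. Inside genes, a B1_Mur4 copy in Katnbl1 was at 67.7 to 82.8 rpm in IVF and 54.0 and 60.2 in control SCNT, and a B1_Mus1 copy in Tra2b, a splicing factor gene, was at 23.8 to 33.0 in IVF, 38.9 and 33.0 in control SCNT and 12.4 to 17.8 with RK-701.

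Genes that act on B1 were read from the gene counts of the same libraries. Of 24 genes of RNA polymerase III transcription, 4 were higher and 6 lower in control SCNT than in IVF embryos, beside 10.7% and 10.6% of all 25794 genes tested, and 3 were higher and 7 lower in LatA controls, beside 11.5% and 10.2%. Tbp, the TATA-binding protein shared by the polymerases, fell from 300 ± 30.2 rpm (n = 4) to 93.7 ± 9.21 (n = 2) in control SCNT embryos (log2 fold change -1.68, SE 0.20, adjusted p = 1e-06) and to 98.1 ± 36.9 in LatA controls (-1.61, SE 0.20). Maf1, a repressor of RNA polymerase III, rose from 4.93 ± 1.40 to 19.1 ± 3.92 rpm (1.96, SE 0.31, adjusted p = 4.24e-05), and in LatA controls to 17.4 ± 2.97 (1.82, SE 0.31). Polr1c, a subunit shared by RNA polymerases I and III, fell by 1.28 on the log2 scale in control SCNT embryos (SE 0.21), and Brf1, a subunit of TFIIIB, rose by 1.43 in LatA controls (SE 0.21). Polr3g, the subunit form of early embryos and stem cells, rose by 0.44 in control SCNT embryos (SE 0.15, adjusted p = 0.0323), whereas its log2 fold change in LatA controls was 0.14 (adjusted p = 0.55).

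With Kdm4d 7 genes of this list rose and 1 fell, beside 3.94% and 1.25% of all genes, and with TSA and RK-701 10 rose and 0 fell, beside 6.47% and 3.18%. Maf1 fell with Kdm4d from 19.1 to 6.09 ± 1.85 rpm (-1.64, SE 0.38, adjusted p = 0.0112). Gtf3c3, a subunit of TFIIIC, the factor that binds the B box, rose by 1.27 with Kdm4d and 1.19 with TSA and RK-701 on the log2 scale (SE 0.26 in both). Tbp rose by 1.21 (SE 0.22, adjusted p = 0.0018) and 1.38 (SE 0.22, adjusted p = 0.000279). Polr3g was at a log2 fold change of 0.21 with Kdm4d (adjusted p = 0.54) and rose by 0.73 with TSA and RK-701 (adjusted p = 0.00632).

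Among 10 genes that bind or edit B1 or Alu RNA, 2 were higher and 2 lower in control SCNT embryos (beside 10.7% and 10.6% of all genes), 0 and 2 in LatA controls (11.5% and 10.2%), 1 and 0 with Kdm4d (3.94% and 1.25%), and 3 and 0 with TSA and RK-701 (6.47% and 3.18%). Srp9 and Srp14, the partners of 7SL RNA that also bind B1 RNA, fell by 0.74 (SE 0.22, adjusted p = 0.0181) and 0.61 (SE 0.19, adjusted p = 0.0189) in control SCNT embryos. In LatA controls Srp14 fell by 0.61 (adjusted p = 0.0195), whereas Srp9 was at -0.20 (adjusted p = 0.555). With TSA and RK-701 Srp14 rose by 1.02 (SE 0.21, adjusted p = 0.00235). Dhx9, an RNA helicase, rose by 0.56 in control SCNT embryos (adjusted p = 0.00891). Hnrnpc, which binds antisense Alu RNA, fell by 0.71 in LatA controls (adjusted p = 0.00586) and rose by 0.73 with TSA and RK-701 (adjusted p = 0.0232). Ilf2, which encodes an RNA-binding protein, rose by 0.76 with Kdm4d (adjusted p = 0.0392) and 0.68 with TSA and RK-701 (adjusted p = 0.0445).

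Of 15 tested heterochromatin factors, 4 were higher and 2 lower in control SCNT embryos (beside 10.7% and 10.6% of all genes) and likewise 4 and 2 in LatA controls (11.5% and 10.2%), 1 and 0 with Kdm4d (3.94% and 1.25%), and 1 and 1 with TSA and RK-701 (6.47% and 3.18%). Ehmt2, which encodes G9a, was at 11.2 ± 1.03 rpm in IVF and 34.5 ± 3.18 in control SCNT embryos (log2 fold change 1.63, SE 0.21, adjusted p = 2.13e-06), and Pogz, which encodes a partner of HP1, at 25.3 ± 7.56 and 79.3 ± 10.2 (1.64, SE 0.21, adjusted p = 1.61e-06). Both were higher in LatA controls as well, by 1.59 and 1.29. Cbx1, which encodes HP1 beta, fell by 1.04 in control SCNT embryos (SE 0.26, adjusted p = 0.00404) and was at -0.44 in LatA controls (adjusted p = 0.218), where Setdb1, a histone H3K9 methyltransferase gene, fell by 0.79 (adjusted p = 0.0064). Cbx5, which encodes HP1 alpha, rose by 0.95 with Kdm4d (SE 0.19, adjusted p = 0.00363). With TSA and RK-701 Cbx3 rose by 0.66 (SE 0.21, adjusted p = 0.0395) and Chd4 fell by 0.69 (SE 0.20, adjusted p = 0.0256).

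Over the 3 lists together, 20 genes were called in control SCNT embryos and 13 without the first control SCNT library, and 18 in LatA controls and 12 without the second of them. The 10 genes called with Kdm4d became 1 without the first control SCNT library and 5 or 3 without the first or second SCNT-Kdm4d library. The 15 called with TSA and RK-701 became 5 without the second LatA control library and 8 or 5 without the first or second library of the treatment. The link between these genes and the B1 levels was not tested.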

How the data were processed

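Read pairs were trimmed (Trimmomatic), mapped to mm10 (STAR) and, where they had 1 position only, assigned to features without regard to strand (featureCounts) by the authors. The deposited values are the resulting raw counts of 55375 genes and 1755056 repeat copies in 25 libraries. All 11 groups were taken from the labels, which name no separate batch, and p values measure the spread between these embryo pools.

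Counts of autosomal repeat copies were summed by subfamily and by place, from gene positions in the same table, and sums with a mean of at least 1 read were tested with edgeR 4.0.16 in R 4.3.3 (quasi-likelihood test, 1 term per group). The library size was the autosomal gene reads times TMM factors (0.886 to 1.20). The common dispersion was 0.0793. The Benjamini-Hochberg adjustment ran over all repeat sums of a comparison. Place was tested in a model with library terms, single copies at a mean of at least 5 reads, and genes with the same factors, each on the whole table. Python 3.11.15 was used for sums and sequences. The steps were tested on simulated data. A bound sets each library of a group without reads to 3 reads and compares group means. PCR copies were not removed, so bounds cover counting error only.

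Members, lists and tests were chosen with earlier results of these data known. Values are given library by library for the 4 subfamilies with the most reads over all places, near copies included. Named copies are the 3 with the highest mean inside genes and far from them, and up to 2 called copies in each direction with the largest change and at least 10 reads in every library of the higher group. Some of these, with the copies near genes, were given in part. Of the listed genes, up to 3 called per list and comparison with the largest change were named, with Polr3g, Srp9 and Srp14, and some are followed in the other comparisons. Values of 1 gene that met this rule are not reported here. The sequence rule was not met by the named copies, for which no sequence was used, so other copies were shown.

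The alternatives were DESeq2 1.42.0, RLE factors, no TMM, repeat reads as library size, other filters, sex chromosomes, the compared libraries only, 50 kb from genes, limma 3.58.1 for place, the replicate number as a block, leaving out leading copies, leaving out single copies, and leaving out each library in turn. Same-numbered libraries did not deviate together (r from -0.25 to 0.07 over comparisons).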

Additional observations from a re-analysis of the deposited data

Results flagged for a closer look

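Of 20 sets of 4 IVF libraries tested for a library apart from the others (Dixon's test at the 95% level), 3 had one. Chance gives about 1 in 20 for independent sets. These sets share the same 4 libraries and overlap in reads, so the 3 cannot be set against that rate. All 3 were the first IVF library, which had the fewest gene reads (6124685). B1_Mus1 inside genes was at 2139 rpm there and at 2295 to 2322 in the others. The B1_Mur2 copy at chr4:41487361-41487498, near Nudt2, was at 0.172 rpm, a single read, and at 404 to 473 in the others. The B1_Mus2 fragment at chr13:34355306-34355340, nearest Slc22a23, was at 10.3 rpm and at 0.768 to 1.57 in the others.

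The change of B1_Mus2 far from genes with A366 differed with and without TSA, by -1.13 on the log2 scale (SE 0.29, edgeR adjusted p = 0.0316). It was -0.85 (adjusted p = 0.0865) without the fragment nearest Slc22a23, which was at 69.4 and 157 rpm with A366, and -1.51 to -0.84 without single libraries, where the call was lost in 6 of 8 cases. It was higher with A366 alone than in the LatA controls in 2 of 2 libraries, and lower with both agents than with TSA in 2 of 2.

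B1 copies outside genes at less than 10 kb entered none of the comparisons of sums. They held 3478 rpm on average in IVF and 5470.4 in control SCNT libraries, and both control SCNT libraries (5253 and 5687) lay above the highest IVF library (3717). The copies near Nudt2 and Tmem249, which differed widely between libraries of a group, lie among them.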

How the results depend on the processing

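Several alternatives were chosen after seeing the data: crossed replicate numbers, leaving out the Zfp599 copy, the place term without the 10 leading copies, single libraries for the listed genes, and all those of the inhibitor pairs and of the TSA term. The named subfamilies gave 1556 alternative values, of which 1407 kept direction and call, 148 kept direction only and 1 reversed (B1_Mur2 inside genes, A366 against RK-701, -0.0138 with repeat reads as library size). The named copies gave 158, of which 65 kept both and 93 direction only. The cause of the changes below was not tested.

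For Kdm3a, 1 sum was called with DESeq2, RLE factors, repeat reads as library size, no filter, a mean of 10 reads or sex chromosomes, and 8 without TMM. For Kdm4d the counts were 11 (RLE), 26 (no TMM), 1 (repeat reads), 18 (compared libraries only), 3 (50 kb) and 14 (without the 10 leading copies), and 6 listed genes were called with RLE factors. For TSA, 1 sum was called with DESeq2, repeat reads or no filter. With repeat reads the counts were 8 for RK-701, 1 for A366, 4 for TSA with RK-701, 8 for TSA with A366 and 7 for A366 against RK-701. With the compared libraries only they were 4 for RK-701, 1 for TSA with RK-701, 9 for TSA with A366 and 1 for TSA with UNC0638, which had 8 with no filter.

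The place term was called in 2, 4 and 0 subfamilies at 50 kb for control SCNT, LatA control and TSA with RK-701, and in 2, 5 and 1 with limma on the log2 ratio. Without the 10 leading copies it was 2 for control SCNT and 1 for TSA with RK-701. Single copies called without TMM numbered 1249 (control SCNT) and 1516 (LatA control) against IVF, 7 with Kdm3a and 7 with Kdm4d, both then mostly lower, and 23 with TSA and RK-701. At a mean of 20 reads they numbered 348, 395, 11 with Kdm4d, 79 with RK-701 and 39 with TSA and RK-701, then mostly higher.

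In the main test the replicate numbers were not used to pair libraries. Same-numbered libraries did not deviate together, but the labels do not say whether they were made together. With the replicate block 2 sums were called with Kdm4d and 8 with TSA and UNC0638, and 261, 295, 3, 0, 5 and 3 single copies for control SCNT, LatA control, Kdm3a, Kdm4d, RK-701 and TSA with RK-701. The crossed numbers gave 0 for TSA and 0 for LatA control against control SCNT.

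Leaving out 1 library gave 17 to 24 sums for control SCNT and 14 to 24 for LatA controls against IVF, 0 to 1 for Kdm3a, 0 to 7 for Kdm4d, 0 to 1 for TSA, 1 to 19 for RK-701, 0 to 2 for A366, 1 to 22, 2 to 23 and 1 to 17 for TSA with RK-701, A366 and UNC0638, 0 to 1 between the controls and 6 to 13 for A366 against RK-701. It gave 0 to 1 for both pairs with TSA and UNC0638, each 0 without the Arid1b copy, and 0 to 11 for the TSA term of A366, 0 without the Slc22a23 fragment. The listed genes called numbered 13 to 19, 12 to 23, 1 to 10 and 5 to 20 for control SCNT, LatA control, Kdm4d and TSA with RK-701. The place term ranged over 2 to 5, 6 to 8, 0 to 0 and 1 to 2, and single copies over 244 to 591, 188 to 1094, 1 to 6, 0 to 1, 0 to 249 and 0 to 45. Without the second LatA control library 3 single copies were called with TSA and RK-701, mostly higher.

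Groups of 2 libraries, a single depth of unique reads and the missing strand limit these values. Copies without a read are not shown to be silent.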
